A study of Mus musculus with 6 samples.

Results

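The peroxisome proliferator-activated receptors (PPARs), their retinoid X receptor (RXR) partners and 5 lipid genes that PPARs and fasting are known to raise in muscle were followed as a set of 9 genes. These were the receptors *Ppara*, *Ppard*, *Rxra* and *Rxrg* and the targets *Angptl4*, *Pdk4*, *Ucp3*, *Plin2* and *Plin5*, found by gene symbol among the 24532 genes of the deposited table. The genes were chosen by their role and by measured values of the same 6 libraries, since *Angptl4* was included because it rose where other fasting genes were lower. The differences of the 9 genes between the groups are therefore given as a description, with no test of their own. All 9 passed the filter on low counts, as did 13801 genes of the whole table.

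RNA from the gastrocnemius (GAS), a calf muscle of mostly fast fibers, was sequenced from 3 C57BL/6 mice labelled WT and 3 labelled *Sirt6* KO, all males of 20 weeks, with 1 library per mouse. The WT mice carried *Sirt6* flox/flox, and the KO mice carried the same floxed alleles with *Myl1*-Cre, a Cre driven by the myosin light chain 1 promoter. Both groups thus share the floxed alleles, neither carried Cre without them, and the study describes this Cre as active chiefly in type II (fast) fibers, so other cells of the muscle would keep the gene. The mice had free access to food, but the hour of collection and the fed state are not given in the sources used here. The *Sirt6* flox line named in the methods is not the one named in the reporting summary.

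*Sirt6*, the deacylase gene targeted in these mice, went against its label. Its normalized CPM (counts brought to a common library size after TMM scaling) stood at 2.77, 2.23 and 2.88 for the WT mice, taken in the order of their replicate numbers, and at 7.81, 7.44 and 6.68 in libraries 1, 2 and 3 labelled KO. The log2 difference was 1.48 ± 0.17 (SE, n = 3 per group, Benjamini-Hochberg adjusted p = 0.0113 by edgeR's quasi-likelihood test), and the call was lost without library KO 1 or KO 3. All directions given for the groups rest on the labels. A count per gene also holds reads from exons outside a deleted part, and how the reads fall over the exons of *Sirt6* was not analysed here. The libraries held between 44845763 and 63016899 counts on genes, and WT libraries 1 and 2 were the shallowest. The methods and the labels name different TruSeq kits, of which the labels' is stranded, and whether the counting used the strand is not stated, so reads from genes that overlap on opposite strands may be mixed.

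PPARs are nuclear receptors that bind fatty acids and their derivatives. They pair with an RXR on DNA at a direct repeat of a short half-site spaced by 1 base, called DR1, and raise genes that take up, store and burn fat. In muscle, PPARδ is known for the oxidative program and PPARα for fatty acid oxidation, and during fasting a rise of circulating fatty acids raises the target genes: *Pdk4* slows glucose oxidation, *Ucp3* encodes an uncoupling protein of muscle mitochondria, *Angptl4* encodes a secreted inhibitor of lipoprotein lipase, and *Plin2* and *Plin5* coat lipid droplets.

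Because PPAR-RXR pairs act through DR1 elements, the 250 bases before the annotated start sites were searched for such a repeat. A promoter entry in NCBI RefSeq (GRCm38.p6) was matched for 8 of the 9 genes, all but *Angptl4*. Both strands were searched for AGGTCANAGGTCA, with up to 2 mismatches among its 12 fixed letters. Matches were found for *Ucp3*, 51 to 39 bases before the start site, for *Plin2*, 225 to 213 bases before it on the other strand (GGACCCCTGACCT), and for 1 of the *Rxra* promoters, 75 to 63 bases before it (TGGTCATAGGCCA). Of 32851 promoters, 3.24% held such a match, and of 27025 genes with a promoter entry 3.72% had one. The cAMP response element TGACGTCA, which CREB binds, was searched in the same way since the study concerns CREB. It was found in none of these promoters without a mismatch (1.55% of all promoters). With 1 mismatch it was found for *Ppard* and *Plin5* (10.6% of all promoters and 12.1% of genes with up to 1). A match of letters is a description of the sequence, not a bound site. Shown are the promoters of *Ucp3* and *Ppard*, with the DR1 match and the cAMP-element match in capitals, and that of *Pdk4*, the most abundant transcript of the set, which holds neither match in this window. The *Ucp3* window is chr7:100472741-100472990 on the plus strand, the *Ppard* window chr17:28232504-28232753 on the plus strand and the *Pdk4* window chr6:5496279-5496528 on the minus strand, each read 5′ to 3′ toward the start site.
Ucp3: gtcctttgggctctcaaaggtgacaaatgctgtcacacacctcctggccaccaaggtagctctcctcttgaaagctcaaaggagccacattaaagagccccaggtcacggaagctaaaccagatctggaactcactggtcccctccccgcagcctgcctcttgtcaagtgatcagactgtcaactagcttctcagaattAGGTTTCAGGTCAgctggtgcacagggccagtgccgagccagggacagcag
Ppard: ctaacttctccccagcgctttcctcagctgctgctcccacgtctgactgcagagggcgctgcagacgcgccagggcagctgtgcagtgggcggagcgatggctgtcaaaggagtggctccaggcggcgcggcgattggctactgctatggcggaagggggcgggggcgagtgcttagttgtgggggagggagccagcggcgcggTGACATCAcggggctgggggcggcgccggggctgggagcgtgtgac
Pdk4: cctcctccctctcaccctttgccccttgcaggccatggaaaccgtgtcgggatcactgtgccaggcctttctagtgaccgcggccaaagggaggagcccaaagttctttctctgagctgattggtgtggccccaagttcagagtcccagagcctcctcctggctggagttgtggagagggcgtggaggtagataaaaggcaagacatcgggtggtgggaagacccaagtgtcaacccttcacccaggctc

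*Ppara* (chr15:85734910-85806851), the receptor best known from liver and for fatty acid oxidation, differed the most among the 4 receptors but also varied the most within each group. It was at 112, 170.8 and 23.7 CPM in WT replicates 1, 2 and 3 and at 6.89, 32.9 and 15.1 CPM in replicates 1, 2 and 3 labelled KO, the order used throughout. WT library 3 fell below KO library 2, so the groups overlapped. The means were 102 ± 74.1 and 18.3 ± 13.3 CPM (SD, n = 3), and the fitted log2 difference was -2.48 ± 0.78 (SE), a WT level 5.58 times that of the other group. The coefficient of variation of *Ppara* was 72.5% in WT and 72.7% in the libraries labelled KO, where the medians over all genes tested were 17.3% and 11.8%.

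*Ppard* (chr17:28232754-28301469), the PPAR best known from skeletal muscle, was lower by a smaller and more even step. It was at 34.7, 43.4 and 34.7 CPM in WT and at 23.1, 25.0 and 25.6 CPM in the libraries labelled KO. Every WT library lay above every library of the other group. The log2 difference was -0.61 ± 0.12 (SE, n = 3 per group), from 37.6 ± 5.06 to 24.6 ± 1.34 CPM (SD).

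The RXR genes, which encode the shared partner subunits, were both somewhat higher on average, with overlapping groups. *Rxra* (chr2:27676445-27763319) was at 165, 155 and 220.3 CPM in WT and at 216, 183 and 210.4 CPM in the libraries labelled KO. Its log2 difference of 0.17 ± 0.16 (SE) turned to -0.05 when each library's trend over GC content was removed. *Rxrg* (chr1:167598362-167639623), the RXR enriched in striated muscle, was at 51.9, 59.2 and 86.7 CPM in WT and at 113, 70.9 and 87.5 CPM in the other group. Its log2 difference was 0.46 ± 0.24 (SE), WT library 3 lay among the other group's libraries, and the sign was positive in all 16 alternatives.

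**Figure D1:**
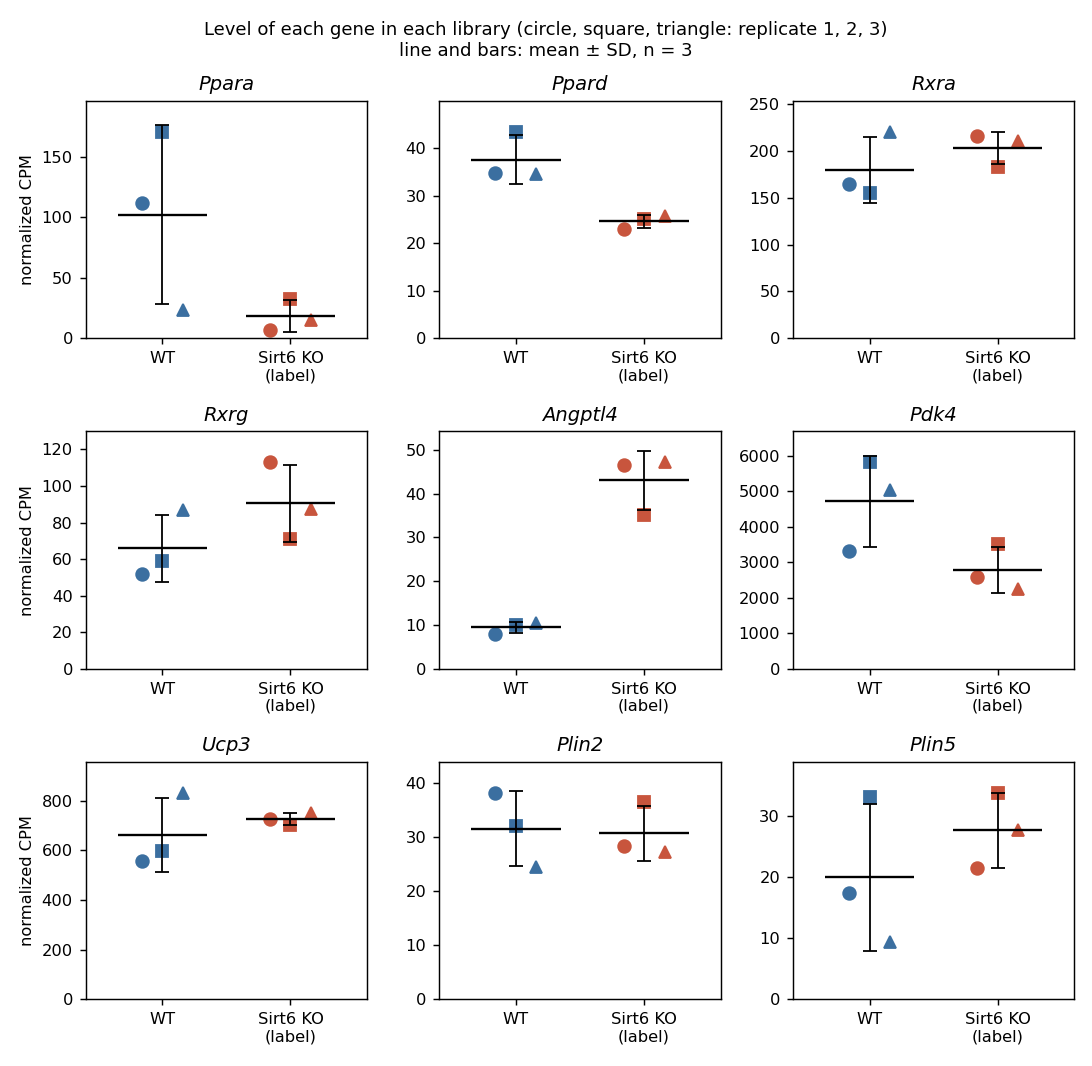
Normalized CPM (linear axis from 0) of each of the 9 genes in each library, with WT at the left and the libraries labelled KO at the right of each panel; circles, squares and triangles mark replicates 1, 2 and 3, and the line and bars give the mean ± SD (n = 3). The groups lie apart for Ppard and Angptl4 and overlap for the other 7 genes; Ppara spans 23.7 to 170.8 CPM within WT.

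*Angptl4* (chr17:33774900-33781575) was included because it rose in these libraries, so its rise is a description only. Its counts were 396, 476 and 594 in WT against 2729, 2134 and 2596 in those labelled KO, or 7.94, 10.1 and 10.4 CPM against 46.6, 35.2 and 47.1 CPM. The lowest library labelled KO lay well above the highest WT library. The means were 9.47 ± 1.33 and 43.0 ± 6.75 CPM (SD, n = 3), and the log2 difference of 2.18 ± 0.17 (SE) corresponds to a 4.54-fold higher level. Over 16 alternatives the difference stayed between 1.97 and 2.32, and over the 6 fits that left out 1 library it stayed between 2.08 and 2.32. All these fits use the libraries by which *Angptl4* was chosen, so they are no separate support.

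*Pdk4* (chr6:5483351-5496278), the kinase that switches off pyruvate dehydrogenase, was lower on average. It was at 3305, 5810.0 and 5022 CPM in WT and at 2574, 3502 and 2251 CPM in the libraries labelled KO. KO library 2 lay just above WT library 1, so the groups overlapped by that pair of libraries alone. The log2 difference was -0.76 ± 0.27 (SE, n = 3 per group) and was negative in all 16 alternatives, from -0.96 to -0.59.

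*Ucp3* (chr7:100472991-100486432) was at 558, 596 and 832 CPM in WT and at 726, 702 and 751 CPM in the libraries labelled KO. The WT libraries spanned the whole range of the other group, and the log2 difference was 0.13 ± 0.18 (SE). *Plin2* (chr4:86626910-86670217), the lipid droplet protein found in most cells, was at 38.1, 32.0 and 24.4 CPM in WT and at 28.4, 36.4 and 27.2 CPM in the other group. Its groups also overlapped, and its log2 difference of -0.04 ± 0.19 (SE) was negative in 12 and positive in 4 of 16 alternatives. *Plin5* (chr17:56111597-56117606), the perilipin that ties lipid droplets to mitochondria in oxidative tissue, was at 17.3, 33.0 and 9.44 CPM in WT and at 21.4, 33.7 and 27.6 CPM in the other group. The highest libraries of both groups were nearly equal while the lowest WT library lay far below, and the log2 difference was 0.47 ± 0.41 (SE).

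The 9 genes thus did not share a direction. As a plain count from the edgeR fit over all 13801 genes (Benjamini-Hochberg adjustment at 0.05), 1 of the 9 was called lower (*Ppard*) and 1 higher (*Angptl4*), where 8.39% of all genes tested were called lower and 7.85% higher. Of the 6 fits that left out 1 library, the *Ppard* call held in 1 (without WT library 3) and the *Angptl4* call in 6. The 3 libraries of each group lay apart for 2 of the 9, against 40.0% of all genes tested. Nothing is read from these counts, since the same contrast entered the choice of the genes. The median log2 difference of the 9 was 0.13, beside -0.02 over all genes tested.

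**Figure D2:**
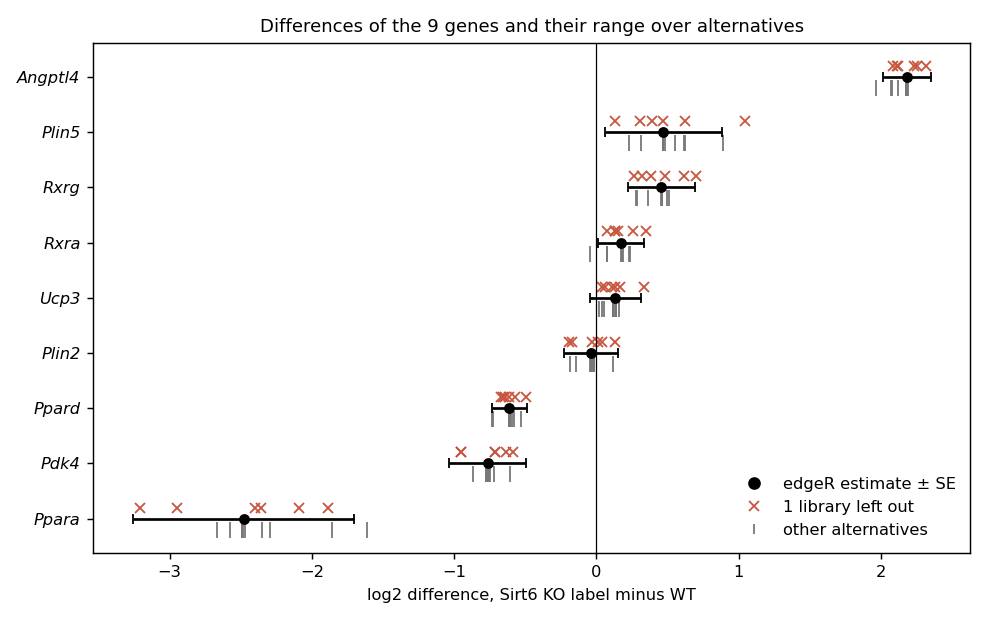
Log2 difference (libraries labelled KO minus WT) of each of the 9 genes; the black point and bar give the edgeR estimate ± SE (3 libraries per group), crosses the fits with 1 library left out and ticks the other alternatives. Angptl4 lies at 2.18 with its alternatives between 1.97 and 2.32, while the alternatives of Ppara spread from -3.21 to -1.61 and those of Plin2 and Rxra lie on both sides of 0.

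Measured per length, the 9 genes differed widely in abundance, and *Pdk4* led in both groups. The mean TPM in WT was 2967 for *Pdk4* and 584 for *Ucp3*, and each lay apart from the next gene in the order. *Rxrg* at 79.5 and *Rxra* at 74.4 mean TPM overlapped each other and lay above the rest. *Plin2* at 37.3, *Ppara* at 31.4, *Ppard* at 25.7 and *Plin5* at 22.8 mean TPM overlapped from neighbour to neighbour, and *Angptl4*, at 10.8 mean TPM, came last, with a range that met that of *Plin5*. In the libraries labelled KO the first 4 places were held by the same genes, with mean TPM of 1625 for *Pdk4*, 600.2 for *Ucp3*, 102 for *Rxrg* and 78.5 for *Rxra*. *Angptl4* was in the fifth place at a mean TPM of 45.8, overlapping *Plin2* at 32.8, and *Plin5* followed at 28.4, overlapping *Plin2*. *Ppard* at 15.4 and *Ppara* at 4.94 mean TPM held the last places, each apart from the gene before it. The deposited FPKM values gave the same order in both groups.

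Within the PPAR family, *Ppara* held 52.7%, 58.5% and 21.7% of the summed TPM in WT and 10.3%, 32.98% and 18.9% in the libraries labelled KO. *Ppard* held 37.6%, 34.4% and 72.3% in WT and 79.9%, 58.0% and 73.2% in the other group. In both shares WT library 3 lay among the libraries of the other group. *Pparg*, the adipocyte PPAR, held between 5.99% and 9.78% in every library. The summed PPAR TPM was 68.8, 88.5 and 28.8 in WT and 18.8, 26.7 and 21.6 in the libraries labelled KO, and the groups did not overlap. The summed RXR TPM was 190.0 ± 18.1 in WT and 216 ± 36.5 in the other group (SD, n = 3), most of it from *Rxra* and *Rxrg* and between 14.0% and 21.5% from *Rxrb*.

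*Pdk4* was the main pyruvate dehydrogenase kinase transcript in every library, with 83.0%, 88.6% and 87.3% of the PDK TPM in WT and 78.1%, 81.7% and 75.1% in the libraries labelled KO. Its share was lower in every library of the second group than in any of the first, although its CPM overlapped. Single genes lay apart for 40.0% of all genes tested, so nothing is read from this share. The other kinases did not pass edgeR's quasi-likelihood test: *Pdk1* differed by -0.30 (adjusted p = 0.133), *Pdk2* by 0.09 (adjusted p = 0.598) and *Pdk3*, which stayed below 1 CPM, by -0.46 on the log2 scale (adjusted p = 0.401). *Pdp1*, the phosphatase that opposes these kinases and reactivates pyruvate dehydrogenase, was at 36.0, 40.8 and 33.9 CPM in WT and at 143, 117 and 123 CPM in the libraries labelled KO. It rose by 1.79 ± 0.13 on the log2 scale (SE, n = 3 per group, adjusted p = 0.00873 by edgeR's quasi-likelihood test), and its adjusted p lay under 0.05 in all 15 alternatives, the highest being 0.0458. The ratio of *Pdk4* to *Pdp1* TPM was 112, 173 and 180.3 in WT and 21.9, 36.5 and 22.2 in the other group. *Pdp2*, the other catalytic phosphatase (log2 difference -0.45, adjusted p = 0.634), and *Pdpr*, the regulatory subunit (0.21, adjusted p = 0.234), did not pass the test.

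Among the perilipins, which package lipid droplets, *Plin4* made up most of the transcripts. *Plin5* held 4.99%, 6.61% and 2.75% of the perilipin TPM in WT and 10.02%, 10.8% and 7.94% in the libraries labelled KO. Its share was thus apart between the groups, although its CPM was not. A share also depends on the whole, and the summed perilipin TPM was 445.8 ± 118.7 in WT and 299.5 ± 62.4 in the other group (SD, n = 3). Single genes lay apart for 40.0% of all genes tested, so no gain of *Plin5* is read from its share. *Plin4* held 74.7% ± 5.58 in WT and 65.2% ± 5.01 in the other group (SD, n = 3), with a log2 difference in level of -0.63 ± 0.25 that missed the threshold in edgeR's quasi-likelihood test (adjusted p = 0.114). *Plin1*, an adipocyte perilipin (log2 difference 0.93, adjusted p = 0.485), and *Plin3*, which is found in most cells (-0.25, adjusted p = 0.608), did not pass either. *Ucp3* made up 93.8% to 98.1% of the uncoupling protein TPM. *Ucp2*, its widely expressed relative, did not pass the test (log2 difference -0.29, adjusted p = 0.587), and *Ucp1*, the brown fat form, had 6 counts in KO library 1 and 0 in the others, where a count of 0 allows up to 3 counts (counting error only).

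**Figure D3:**
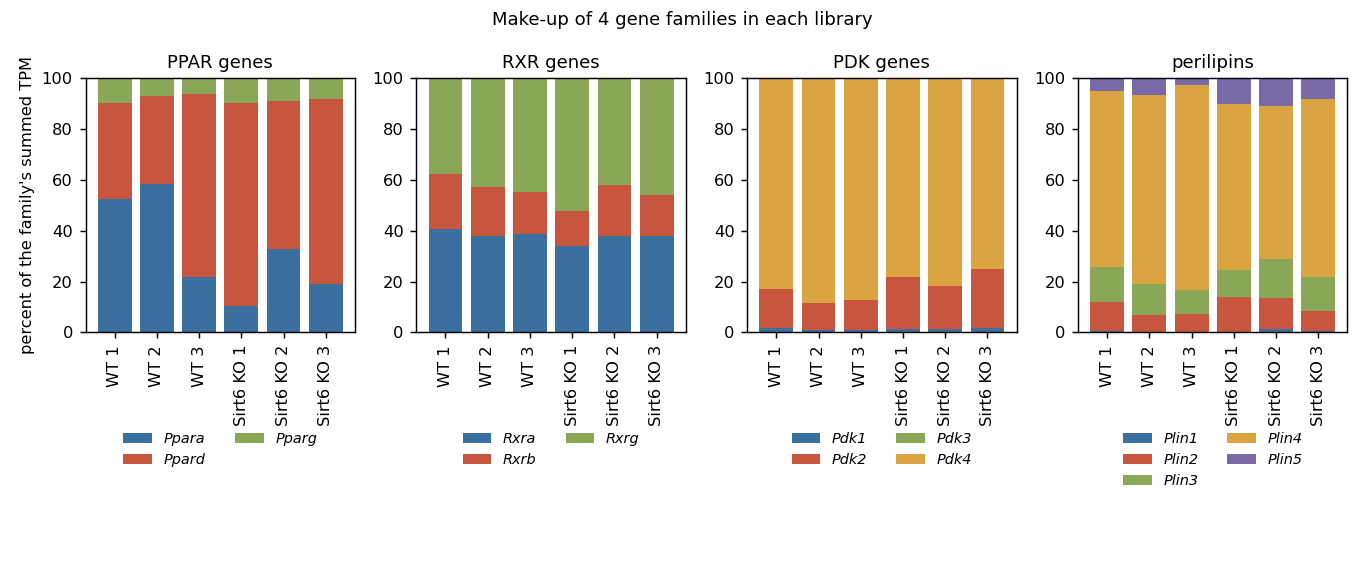
Percent of the summed TPM of 4 gene families held by each member, 1 bar per library; the families are the PPAR, RXR and pyruvate dehydrogenase kinase (PDK) genes and the perilipins. Ppara holds 52.7% and 58.5% in WT libraries 1 and 2, 21.7% in WT library 3 and 10.3% to 32.98% in the libraries labelled KO. Pdk4 holds 75.1% or more in every library. The Plin5 share is larger in the second group, where the summed perilipin TPM is smaller on average.

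ANGPTL4 blocks lipoprotein lipase (*Lpl*), the enzyme that frees fatty acids from circulating lipoproteins, so the transcripts of both were set side by side. *Lpl* was at 1607, 1732 and 477 CPM in WT and at 222, 608 and 268 CPM in the libraries labelled KO. WT library 3 lay below KO library 2, and the log2 difference of -1.80 ± 0.56 (SE, n = 3 per group) missed the threshold in edgeR's quasi-likelihood test (adjusted p = 0.0663, and 0.00883 to 0.199 over 15 alternatives). The ratio of *Lpl* to *Angptl4* TPM was 95.2, 80.7 and 21.6 in WT and 2.24, 8.12 and 2.67 in the other group, without overlap. *Angptl4* alone lay apart, *Lpl* alone did not, and *Angptl4* was included because it rose, so nothing is read from this gap. Of 11 listed relatives and partners of *Angptl4*, 7 passed the filter and none was called by edgeR's quasi-likelihood test. The related *Angptl2* differed by -0.23 (adjusted p = 0.309), *Angptl1* by -0.56 (adjusted p = 0.345), *Angptl6* by 0.43 (adjusted p = 0.292) and *Angptl7* by -0.62 on the log2 scale (adjusted p = 0.349). *Gpihbp1*, which anchors the lipase on capillaries (-0.18, adjusted p = 0.62), and *Lmf1*, its maturation factor (0.21, adjusted p = 0.431), did not pass it, and *Angptl8*, *Lipc* and *Pnlip* had a count of 0 in all 6 libraries.

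Few of the wider PPAR targets passed the test. Of 45 listed genes besides the 9, 44 were tested. Of these, 2 were called lower and 1 higher by edgeR's quasi-likelihood test, against 8.39% of all genes tested called lower and 7.85% higher. This was 6.82% of the tested members of the list, beside 16.2% of all genes tested. The median log2 difference was -0.24, with 29 genes negative. It was -0.07 with a term for libraries rich or poor in slow-fiber markers, -0.14 by limma on log2(FPKM + 1) and -0.15 on log2(FPKM + 0.1), -0.44 without WT library 3, -0.43 without KO library 2 and 0.00098 without WT library 2, so no direction is read from it. *Cpt1a*, the form of the mitochondrial carnitine gate typical of liver, was the one that rose, from 12.4 ± 1.78 to 27.1 ± 5.08 CPM (SD, n = 3; log2 difference 1.12 ± 0.18, adjusted p = 0.0143). *Cpt1b*, the muscle form, stayed the larger transcript, and the ratio of *Cpt1b* to *Cpt1a* TPM was 35.1 ± 7.30 in WT and 17.3 ± 6.05 in the libraries labelled KO (*Cpt1b* was named after its values were seen). *Decr1*, which handles unsaturated fatty acids in mitochondria, fell by 0.74 ± 0.19 (adjusted p = 0.042), and *Agpat9*, the glycerol phosphate acyltransferase now called *Gpat3*, fell by 2.45 ± 0.47 on the log2 scale (adjusted p = 0.0197). Without WT library 3 the list held 15 genes called lower and 2 higher, without WT library 1, WT library 2 or KO library 2 it held 1 called lower (and 0 higher without WT library 2), and without KO library 1 or KO library 3 it held 0 in either direction. With each library's GC trend removed, *Decr1* lost its call and *Cpt1a* kept it, while *Agpat9* had no GC value under that symbol.

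None of the 7 genes of fatty acid uptake and activation was called, although 6 were negative with a median of -0.86, and *Fabp3*, the muscle fatty acid carrier and the most abundant of them per length, differed by -0.87 (adjusted p = 0.267). Of 17 genes of mitochondrial beta-oxidation, 13 were negative and the median log2 difference was -0.45. The most abundant per length, *Hadhb* (-0.73, adjusted p = 0.0697) and *Acadm* (-0.62, adjusted p = 0.134), did not pass edgeR's quasi-likelihood test. Of 4 peroxisomal genes none was called, with the thiolase *Acaa1a* at 0.20 (adjusted p = 0.577). None of 8 tested genes of thioesterases, ketogenesis and other functions was called, with *Txnip* at 0.40 (adjusted p = 0.482) and *Gpd1* at 0.36 (adjusted p = 0.242), and *Fgf21* had a count of 0 in all 6 libraries. Of 8 storage and lipolysis genes only *Agpat9* was called, while *Pnpla2*, the main triglyceride lipase, was at -0.15 (adjusted p = 0.682).

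**Figure D4:**
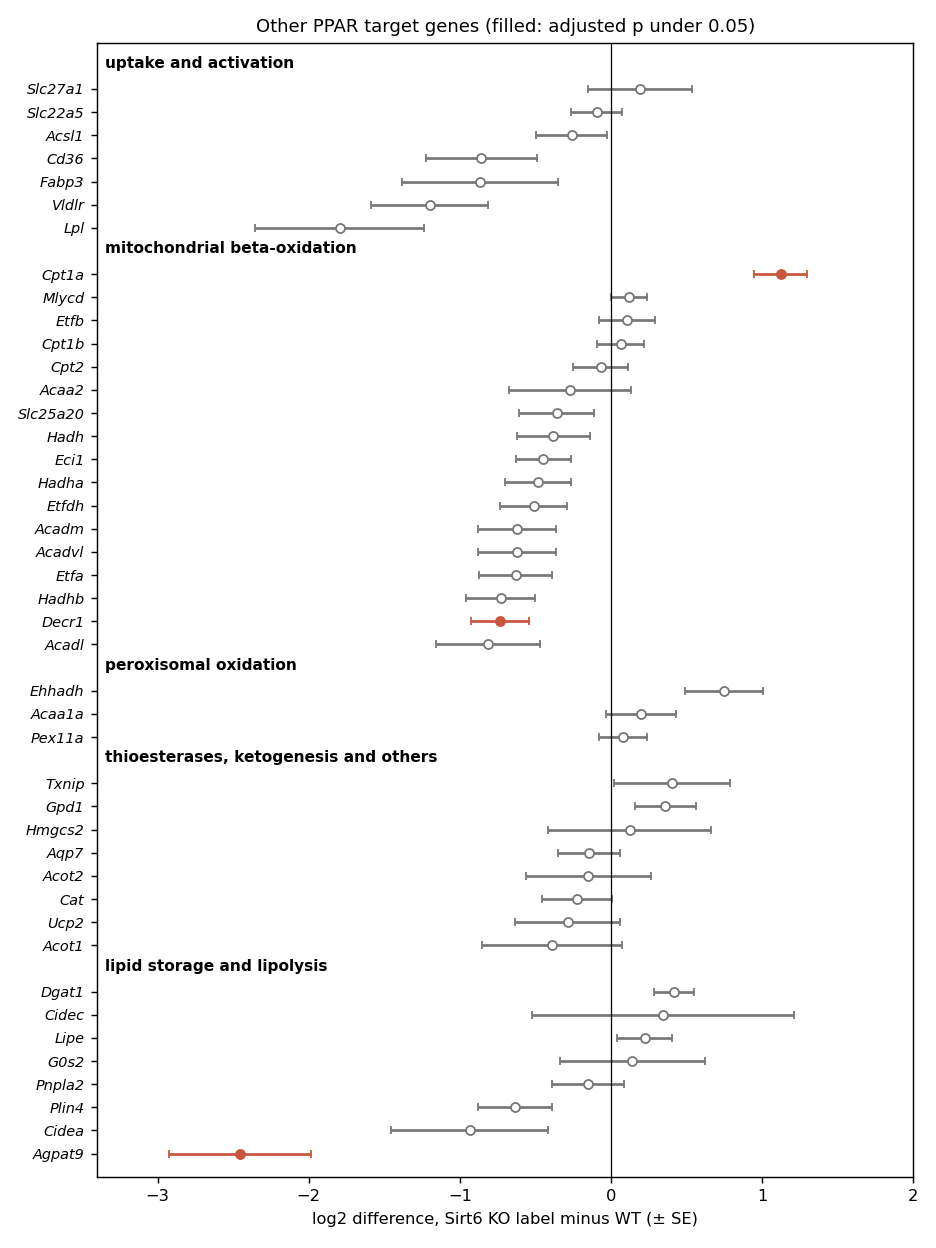
Log2 difference ± SE (libraries labelled KO minus WT, 3 libraries per group) of other PPAR target genes tested, grouped by function; filled points had an adjusted p under 0.05. The filled points are Cpt1a at 1.12, Decr1 at -0.74 and Agpat9 at -2.45, and 13 of the 17 beta-oxidation genes lie below 0.

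Of 21 coactivators, corepressors and partners of PPARs, 3 were called lower and 2 higher by edgeR's quasi-likelihood test, with a median log2 difference of -0.16. This is 23.8% of the list, beside 16.2% of all genes tested, so the count is given as a description and nothing is read from it about PPAR partners as a group. The median was between -0.25 and -0.08 in the 15 alternatives. *Ppargc1a*, encoding the coactivator PGC-1α, was at 764, 1703 and 515 CPM in WT and at 45.6, 169.7 and 92.2 CPM in the libraries labelled KO (log2 difference -3.28 ± 0.61, adjusted p = 0.0186). *Nrip1*, a corepressor, fell by 0.81 ± 0.12 (adjusted p = 0.0132) and *Sirt1*, a deacetylase that acts with PPARs, by 0.75 ± 0.13 on the log2 scale (adjusted p = 0.0178). *Prmt1*, a methyltransferase coactivator, rose by 1.02 ± 0.14 (adjusted p = 0.0132), and *Hdac3*, the deacetylase of the NCoR corepressor complex, rose by 0.78 ± 0.17 (adjusted p = 0.029); *Sirt1* and *Hdac3* were named after their values were seen. *Lpin1*, a coactivator and phosphatidate phosphatase, was among the most abundant per length and did not pass the test (-0.37, adjusted p = 0.192). The counts of this list fell to 0 in both directions without KO library 1 or KO library 3 and to 1 in both directions without WT library 1 or WT library 2, and rose to 5 lower without WT library 3. With the GC trend removed *Sirt1* lost its call.

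Other receptors that share RXR were counted too. Of 11 listed, 9 were tested and 3 were called lower and 1 higher, where 8.39% and 7.85% of all genes tested were. The orphan receptors *Nr4a2* and *Nr4a1* had log2 differences of -3.46 ± 0.60 (adjusted p = 0.0166) and -2.50 ± 0.31 (adjusted p = 0.0128), and *Nr1h2*, the oxysterol receptor LXRβ, rose by 0.84 ± 0.12 (adjusted p = 0.0131, edgeR's quasi-likelihood test for all 3). The remaining one was the thyroid hormone receptor *Thrb* at -0.65 ± 0.12 (adjusted p = 0.0197), named after its values were seen, which lost its call with the GC trend removed. Each of these calls was lost without KO library 1 or KO library 3, and those of *Nr4a2* and *Thrb* also without WT library 1 or WT library 2. *Nr4a2* was near the floor in the libraries labelled KO, at 0.410, 0.841 and 0.636 CPM. Its log2 difference ran from -3.88 to -1.22 over 15 alternatives, so its size is uncertain.

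The fasting genes other than the 9 were mostly lower, which is the contrast by which *Angptl4* was included and so is no separate finding. Of 21 genes that fasting or glucocorticoids raise in muscle, 11 were called lower (8.39% of all genes tested) and none higher (7.85%) by edgeR's quasi-likelihood test, with a median log2 difference of -1.005 and 20 genes negative. Part of this list was known from these libraries when it was written, so its direction is not independent evidence. *Irs2*, an insulin receptor substrate, fell by 2.76 ± 0.55 (adjusted p = 0.0214), *Mt1*, a metallothionein, by 2.58 ± 0.46 (adjusted p = 0.0174) and *Ddit4*, an inhibitor of mTORC1, by 2.27 ± 0.59 on the log2 scale (adjusted p = 0.042). The most abundant per length were *Trim63*, the atrophy ubiquitin ligase MuRF1, which fell by 1.81 ± 0.33 (adjusted p = 0.0181), and *Tsc22d3*, a glucocorticoid target, which fell by 0.92 ± 0.24 (adjusted p = 0.0421). The call of *Tsc22d3* held in 7 of 15 alternatives. It was lost with the GC trend removed, with the replicate block and without the filter on low counts, among others. That of *Ddit4* was also lost without this filter. The count of 11 fell to 8 with the GC trend removed. It fell to 0 without WT library 2, KO library 1 or KO library 3, to 4 without WT library 1 and to 7 without KO library 2. Beside these, *Pdk4* differed by -0.76, *Ucp3* by 0.13 and *Angptl4* by 2.18 on the same scale.

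The patterns over the 6 libraries were compared by the root mean square distance between log2 CPM profiles, each centred on its mean after 0.5 CPM was added. Among the 9 genes the closest pair was *Rxra* and *Ucp3* at 0.0805, and the farthest was *Ppara* and *Angptl4* at 2.51. The tested genes closest to *Angptl4* were *Casr* at 0.155, *2410002F23Rik* at 0.198, *1500017E21Rik* at 0.216, *Nhs* at 0.218 and *Lsp1* at 0.222, where the median distance over all genes tested was 1.10. Closest to *Pdk4* were *Sesn1* at 0.0986, *Gm20735* at 0.128, *Fibin* at 0.129, *Daam1* at 0.131 and *Mustn1* at 0.142, against a median of 0.538. *Nhs* and *Gm20735* had group means of 2.63 CPM or less, where the added 0.5 CPM narrows a profile, and *Sesn1* is also on the fasting list. The nearest of all genes tested must lie below the median, so their closeness is no finding. Those listed for *Angptl4* had log2 differences from 1.89 to 2.84 and so share the rise by which it was included.

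Levels of some of the 9 genes moved with the slow-fiber markers of the libraries. The summed CPM of 9 slow-fiber markers, such as the myosin *Myh7*, was 3725, 3116 and 145 in WT and 376, 2200 and 521 in the libraries labelled KO, so WT 1, WT 2 and KO 2 were rich and WT 3, KO 1 and KO 3 poor. In the rich libraries *Ppara* was at 141 CPM in WT (mean of 2) and 32.9 CPM in KO library 2, a log2 ratio of -2.10. In the poor libraries it was at 23.7 CPM in WT library 3 and 11.0 CPM in the others (mean of 2), a log2 ratio of -1.11. With the split as a term in the fit, a choice made after the data were seen, the log2 difference of *Ppara* was -1.61 in place of -2.48 and that of *Plin5* 0.89 in place of 0.47. The part of the slow-fiber markers in these differences was not tested, and in bulk muscle fewer cells of a type and less RNA per cell cannot be told apart.

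*Angptl4* had a log2 ratio of 1.96 within the rich and 2.18 within the poor libraries, and 2.07 with the split as a term. *Ppard* had log2 ratios of -0.64 and -0.51. For *Angptl4* and *Ppard* the groups lay apart over all 6 libraries, so the sign within each kind was fixed in advance. Nothing about fiber content is read from it. *Pdk4* was lower in both kinds of library, with ratios of -0.38 in the rich and -1.06 in the poor libraries. *Plin5* was higher in both, with 0.42 and 1.38. *Ucp3* changed sign between them, from 0.28 to -0.17, and so did *Rxra*, from 0.20 to -0.05. *Lpl* had ratios of -1.46 and -0.96, while *Fabp3* turned from -0.81 in the rich to 0.42 in the poor libraries. Each of these ratios sets 2 libraries against 1 and has no test. The groups were also not matched for slow markers within each kind. In the poor libraries the marker sum was 145 CPM in WT and 376 and 521 CPM in the others. In the rich libraries it was 3725 and 3116 CPM in WT and 2200 CPM in KO library 2. The part of these gaps in the ratios was not tested.

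**Figure D5:**
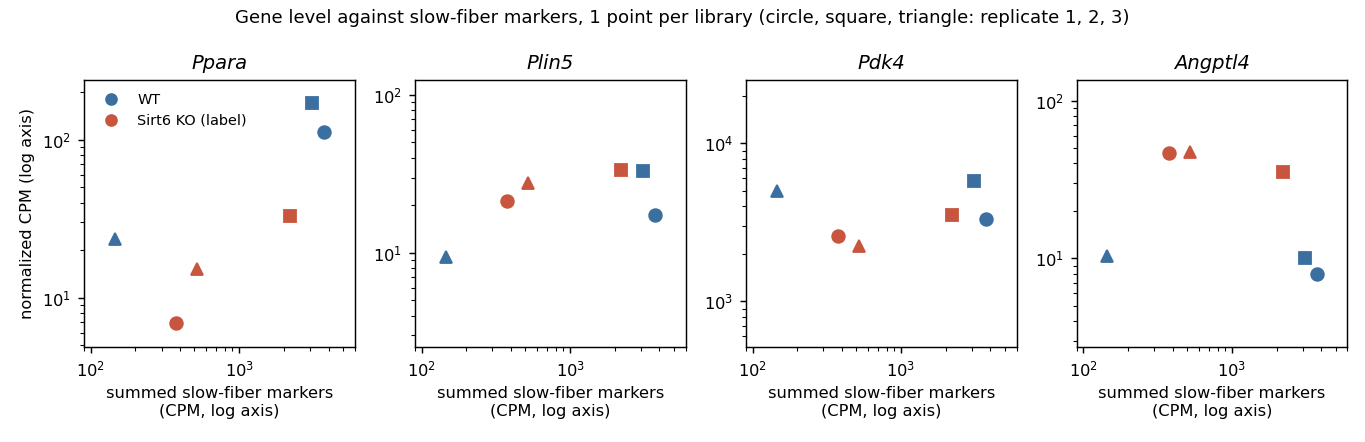
Normalized CPM of 4 of the genes (log axis, spanning the same ratio in each panel) against the summed CPM of 9 slow-fiber markers (log axis), 1 point per library; colour gives the group and the symbol the replicate number. Ppara is highest in the 2 WT libraries rich in slow markers, while Angptl4 lies at 35.2 CPM or above in the libraries labelled KO and at 10.4 CPM or below in WT.

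Markers of other cell types were present at low levels next to those of the muscle fiber, which summed to 144212 to 241902 CPM over 10 genes. The summed CPM of 8 markers of adipocytes, which also make ANGPTL4, was 186, 259 and 124 in WT and 163, 298 and 192 in the libraries labelled KO, with 7 of the 8 tested and none called. Most of this sum in every library was *Fabp4* (named after its values were seen). It was at 140, 204 and 119 CPM in WT and at 147, 175 and 137 CPM in the libraries labelled KO, so the sum says little about the other markers. *Adipoq*, which encodes adiponectin, was at 7.96, 9.25 and 0.768 CPM in WT and at 4.17, 19.0 and 8.33 CPM in the other group. The 7 endothelial markers summed to 167 to 310.1 CPM in WT and 203 to 211 CPM in the other group, with none called. The 5 macrophage markers summed to 17.8 to 60.9 and 23.4 to 34.8 CPM and the 5 erythroid markers to 46.6 to 297 and 80.2 to 181 CPM, with none called. *Hbb-bt*, an adult beta-globin gene (named after its values were seen), was at 0 in the same 3 libraries that were poor in slow markers. Globin reads were still present there, since the beta-globin gene *Hbb-bs* was at 23.1 CPM in WT library 3. In KO libraries 1 and 3 it was at 51.9 and 38.6 CPM. The part of these cells in the levels of the 9 genes was not tested.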

How the data were processed

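RNA from GAS muscle was measured in 6 libraries, 3 labelled WT and 3 labelled *Sirt6* KO, and groups and replicate numbers were taken from the sample labels. The authors deposited whole-number read counts per gene from StringTie, not normalized between libraries. The deposited FPKM values divide by gene length and by depth, and the deposited TPM values are brought to a fixed sum in each library. The submitters' processing notes name bcl2fastq 2.20.0, FastQC 0.11.7, HISAT2 2.1.0, Bowtie2 2.3.4.1, StringTie 2.1.3b and mm10, while the reporting summary names STAR. The methods mention a filter at an FPKM of 1, which was not applied here.

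In edgeR 4.0.16 under R 4.3.3, filterByExpr kept 13801 of 24532 genes, libraries were scaled by TMM, and a quasi-likelihood model with group as the single factor was fitted, with p-values adjusted by Benjamini-Hochberg over the genes tested and a threshold of 0.05. The procedure was tested on simulated counts with a single mean per gene and planted changes. The simulation held no slow-marker differences between libraries, so it does not bear on how calls here depend on single libraries. CPM uses the TMM-scaled library size, and 1 count was worth 0.0165 to 0.0212 CPM. Errors on differences are standard errors (SE) from the fit, and those on levels are SDs over 3 libraries. The common biological coefficient of variation was 24.1%.

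The members and lists were chosen with earlier results of these data known. The text names the 9 members, *Sirt6*, all relatives of the members (perilipins, PDK and PDP genes, uncoupling proteins, partners and relatives of *Angptl4*), in each other list the 3 genes of largest absolute log2 difference with an adjusted p under 0.05 and the 2 of highest mean FPKM, and the 5 genes nearest to *Angptl4* and to *Pdk4* in pattern. Any other gene named was chosen after its values were seen, and the results of 2 genes that the rule names are not reported here. The motifs were chosen with results known. The *Gpat3* entry was found under its older symbol *Agpat9* by NCBI gene identifier.

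The alternatives were DESeq2 1.42.0 (Wald test), DESeq2 size factors, a fit to all genes with a count, a minimum of 10 counts in every library, limma 3.58.1 after quantile normalization on the log2(FPKM + 1) scale or with a pseudocount of 0.1, a replicate block, leaving out each library, and removal of each library's lowess trend (span 0.3) over transcript GC content in GENCODE M21, matched by symbol for 13417 of the genes tested (97.2%). A slow-marker term and, for the members, ratios of mean TPM were added after the data were seen. Coordinates and promoters are from NCBI RefSeq (GRCm38.p6), the build of mm10.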

Additional observations from a re-analysis of the deposited data

How the results depend on the processing

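All 16 alternatives kept the direction of *Ppara*, *Ppard*, *Rxrg*, *Angptl4*, *Pdk4*, *Ucp3* and *Plin5*, and the sign of *Rxra* and *Plin2* varied, as described above. Over the whole table, 1158 genes were called lower and 1084 higher. DESeq2's Wald test called 1820 and 1746, and removal of the GC trend left 489 and 489. With 1 library left out, the counts ranged from 2 to 2235 lower and from 6 to 2350 higher, lowest without KO library 1 (2 and 6) or KO library 3 (5 and 8) and highest without WT library 3. Among the PPAR targets, 2 genes were called lower and 1 higher. The lower count was 7 with DESeq2, 1 without the filter on low counts, 1 in each limma fit, 1 with the GC trend removed, 4 with the replicate block, 4 with the slow-marker term and 0 to 15 with 1 library left out. The higher count was 3 with DESeq2, 3 with the slow-marker term and 0 to 2 with 1 library left out. With 1 library left out, the partner list had 0 to 5 lower and 0 to 2 higher, and the fasting list 0 to 12 lower and 0 higher. Leaving out WT library 2 brought the median log2 difference of the PPAR targets from -0.24 to 0.00098, and the slow-marker term brought it to -0.07. The cause of these shifts was not tested, and fits that leave 1 out also hold fewer libraries.

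The correlation of the deviations of same-numbered libraries from their group means was -0.14, 0.34 and 0.22 for replicates 1, 2 and 3, so the numbers were not taken to pair the mice. With the replicate block, 1018 genes were called lower and 904 higher over the whole table. Depth was not limiting for the 9 genes, whose lowest count was 396.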
